A study of Oryza sativa Japonica Group with 17 samples.

Results

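Strigolactone and tillering genes of rice were followed in seedling leaves of the osddm1a/1b mutant and of its wild type Cr-DJ-1. The set was given as 7 locus identifiers: D27, D17 and D10 of strigolactone synthesis, D14, D3 and D53 of strigolactone perception and signalling, and the branching regulator TB1. The rule that sets its members uses their function and no measured value, although the set was proposed with earlier results of these data known. The authors' deposited table of the comparison held 55986 loci and had a row for 6 of the 7, and D27 (LOC_Os11g37650) was not analysed here.

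The series covers 17 samples, and the values below come from its 4 RNA-seq libraries that compare osddm1a/1b (2 repeats) with Cr-DJ-1 (2 repeats). Both genotypes carry the source name DongJin, a japonica variety, and all samples of the series were grown on diluted MS medium without hormones, with leaves taken from seedlings 12 days old. The mutant libraries are titled osddm1a/1b, whereas their mutant field reads osddm1b, so the labels differ on whether one or both genes were hit, and no source used here gives the nature of the alleles. DDM1 is a chromatin remodeller that is needed for DNA methylation of heterochromatin, and rice has a pair of genes for it. The labels speak of repeats without saying whether they were separate plantings, so all p-values rest on the spread of these 4 libraries alone, and that spread may be technical.

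Strigolactones are carotenoid-derived hormones that hold axillary buds back from growing into tillers, and they are also released from roots into the soil. D27 isomerises a carotene, and the cleavage enzymes D17 and D10 turn its product into carlactone, from which cytochrome P450 enzymes make strigolactones. The hormone binds D14, which then joins the F-box protein D3 and leads to destruction of the repressor D53, and TB1 is a TCP transcription factor that restrains bud outgrowth. Rice mutants that lack D3, D10, D14, D17 or D27 are dwarf with many tillers.

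The direction of the deposited fold change is stated in no header. It was read as Cr-DJ-1 over osddm1a/1b, after the order in which the series names the genotypes, and was turned to osddm1a/1b over Cr-DJ-1, so every "higher" and "lower" below holds on that reading. On that reading OsDDM1b (LOC_Os03g51230, a locus paired with its name from general knowledge) had 79 and 58 reads in the osddm1a/1b libraries, against 794 and 659 reads in the Cr-DJ-1 libraries. OsDDM1a (LOC_Os09g27060, paired in the same way) had 301 and 231 reads in osddm1a/1b and 336 and 241 reads in Cr-DJ-1. The authors' deposited table gave log2 changes (± standard error) of -3.27 ± 0.16 (adjusted p = 1.27e-86) for OsDDM1b and -0.14 ± 0.16 (adjusted p = 0.511) for OsDDM1a. OsDDM1b was low in one genotype and OsDDM1a was not called, and since OsDDM1b also bears on the choice of sign, it is no independent check of the labels.

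Reads per library are not a column of the deposited table. They were recovered from the deposited mean, fold change and standard error. For each of the 6 genes 1 combination of 4 whole read numbers was kept as the best match. Library a is the deeper and library b the shallower library of each genotype, with 26336230 and 20360807 recovered reads in osddm1a/1b and 25016695 and 20104742 in Cr-DJ-1. The letters stand for no repeat number. Normalized reads are reads divided by the size factor of the library. Between libraries of one genotype the reads of a locus differed slightly more than counting noise, with a mean chi-square per locus of 1.313 in osddm1a/1b and 1.499 in Cr-DJ-1, where 1 is noise alone.

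Of the 6 genes, D10 and TB1 were higher in osddm1a/1b, D14, D3 and D53 were lower, and D17 was not called (adjusted p below 0.05 in the authors' deposited table). Over all 29212 loci with an adjusted p, 46.7% passed that test, 27.6% as higher and 19.1% as lower. The 2 genes that were higher and the 3 that were lower are to be read against these shares, and no test of the set was made. At other settings of the authors' deposited table the shares called higher and lower were 22.5% and 14.8% (37.3% together) at a threshold of 0.01, and 18.5% and 12.7% (31.2% together) with p-values adjusted over every locus. They were 28.1% and 22.1% (50.2% together) among loci with a mean of at least 10, and 24.7% and 22.5% (47.2% together) after centring on the median fold change. The median log2 change was -0.13 over the 6 genes and 0.05 over all tested loci. The order of the levels between genes is not given, since the reads were not set per length.

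**Figure D1:**
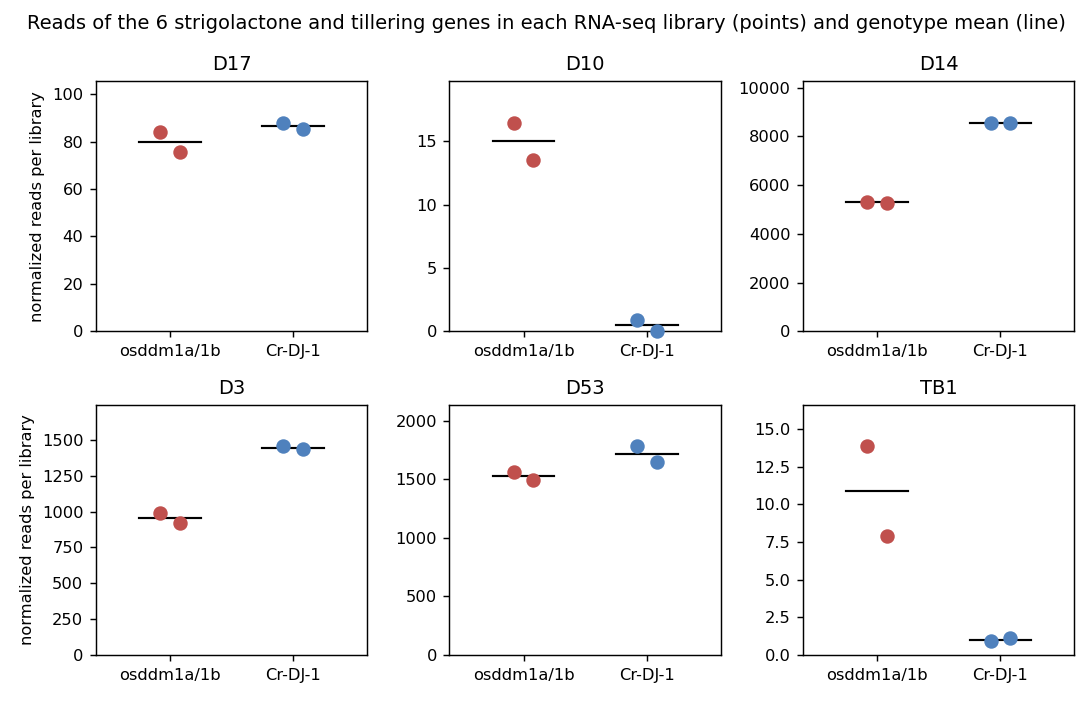
Normalized reads per library (y axis, one scale per gene, starting at 0) of the 6 genes in osddm1a/1b (red points, left) and Cr-DJ-1 (blue points, right), with the mean of each genotype as a black line. D14 and D3 lie lower in both osddm1a/1b libraries, D10 and TB1 have a few reads in osddm1a/1b and at most 1 read per library in Cr-DJ-1, and D17 and D53 lie close together.

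D17 (LOC_Os04g46470, chromosome 4), the carotenoid cleavage dioxygenase CCD7, had 97 and 67 reads in osddm1a/1b and 97 and 76 reads in Cr-DJ-1. These were 84.0 and 75.5 normalized reads in osddm1a/1b, against 88.0 and 85.3 in Cr-DJ-1. The libraries of the genotypes do not overlap, by a narrow margin, as was the case for 81.2% of tested loci with recovered reads, 44.5% higher and 36.7% lower. The authors' deposited table gave a log2 change of -0.10 ± 0.26 (adjusted p = 0.785), with a 95% interval from -0.61 to 0.41. No change of D17 was detectable, and changes within that interval cannot be told from none at this depth.

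D10 (LOC_Os01g54270, chromosome 1), the cleavage dioxygenase CCD8 that completes carlactone, had 19 and 12 reads in osddm1a/1b and 1 and 0 reads in Cr-DJ-1. Both osddm1a/1b libraries were above both Cr-DJ-1 libraries, at 16.5 and 13.5 normalized reads in osddm1a/1b and 0.907 and 0 in Cr-DJ-1. D10 rose by 1.17 ± 0.36 (log2) in the authors' deposited table (adjusted p = 0.00373). That fold change is moderated, which pulls it towards 0 at low counts: it corresponds to 2.25-fold in the authors' deposited table, whereas the reads themselves stood at 31 in osddm1a/1b against 1 in Cr-DJ-1. Scaled by the size factors this is a ratio of 30.3, with an exact 95% counting interval from 5.04 to 1233, which covers counting error only.

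The level of D10 in Cr-DJ-1 was thus at the edge of detection, and the size of its rise could be fixed only within wide bounds. D10 reached the tested loci through its osddm1a/1b reads, since its Cr-DJ-1 mean of 0.453 normalized reads is below the lowest tested mean of 2.88. Among 2469 tested loci with a mean within 1.5-fold of that of D10, 34.3% were called higher in osddm1a/1b and 17.3% had a larger log2 change. The rise of D10 is therefore one of many at low read numbers in these libraries.

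D14 (LOC_Os03g10620, chromosome 3), the hydrolase that serves as strigolactone receptor, had 6136 and 4692 reads in osddm1a/1b and 9421 and 7629 reads in Cr-DJ-1. Normalized, the libraries of each genotype lay close together, at 5314 and 5284 in osddm1a/1b and 8542 and 8563 in Cr-DJ-1. D14 fell by 0.69 ± 0.03 (log2) in the authors' deposited table (adjusted p = 1.41e-84), to 62.0% of the Cr-DJ-1 level. The 95% interval ran from -0.76 to -0.62. Among 689 tested loci of a like mean, 36.3% were called lower, and 4.64% had a log2 change further down than that of D14.

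D3 (LOC_Os06g06050, chromosome 6), the F-box protein that works with D14, had 1144 and 820 reads in osddm1a/1b and 1604 and 1282 reads in Cr-DJ-1. Its normalized reads were 990.7 and 923.5 in osddm1a/1b and 1454 and 1439 in Cr-DJ-1, with no overlap. D3 fell by 0.59 ± 0.08 (log2) in the authors' deposited table (adjusted p = 3.52e-12), to 66.6% of the Cr-DJ-1 level. The receptor and its F-box partner were both lower, with 95% intervals of -0.76 to -0.62 for D14 and -0.75 to -0.43 for D3 that overlap, although their difference was not tested. Among 4374 tested loci with a mean like that of D3, 30.9% were called lower and 6.26% had a log2 change further down.

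D53 (LOC_Os11g01330, chromosome 11), the repressor that strigolactone signalling removes, had 1803 and 1328 reads in osddm1a/1b and 1965 and 1466 reads in Cr-DJ-1. The genotypes did not overlap, at 1561 and 1496 normalized reads in osddm1a/1b and 1782 and 1645 in Cr-DJ-1. D53 fell by 0.16 ± 0.07 (log2) in the authors' deposited table (adjusted p = 0.0492), to 89.3% of the Cr-DJ-1 level, a call that lies at the threshold. Among 3804 tested loci with a mean like that of D53, 31.3% were called lower and 31.3% had a log2 change further down. With p-values adjusted over every locus with a p-value, the adjusted p of D53 was 0.0698. Without osddm1a/1b library a or b or Cr-DJ-1 library a, the adjusted p of D53 in limma with Benjamini-Hochberg adjustment was 0.206, 0.311 and 0.0959.

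Rice has a near-identical copy of D53, D53-like (LOC_Os12g01360, chromosome 12), so reads may be split between the pair in a way that the sources used here do not describe. D53-like had 1636 and 1241 reads in osddm1a/1b and 1587 and 1233 reads in Cr-DJ-1. It was not called, with a log2 change of -0.00 ± 0.07 (adjusted p = 0.969) in the authors' deposited table. The difference between the copies was not tested, and both values are uncertain for this reason.

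TB1 (LOC_Os03g49880, chromosome 3), the TCP factor that holds buds back, had 16 and 7 reads in osddm1a/1b and 1 read in each Cr-DJ-1 library. Normalized, this was 13.9 and 7.88 in osddm1a/1b and 0.907 and 1.12 in Cr-DJ-1, so the genotypes did not overlap but the osddm1a/1b libraries lay apart from each other. TB1 rose by 0.83 ± 0.35 (log2) in the authors' deposited table (adjusted p = 0.0395), with a 95% interval from 0.14 to 1.51. Scaled by the size factors, the 23 reads in osddm1a/1b against 2 in Cr-DJ-1 gave a ratio of 11.2, with an exact 95% counting interval from 2.77 to 98.2.

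TB1 too reached the tested loci through osddm1a/1b, since its Cr-DJ-1 mean of 1.01 normalized reads is below the lowest tested mean of 2.88. Its call was lost with p-values adjusted over every locus (adjusted p = 0.0560) and after centring on the median fold change (adjusted p = 0.0547). Among 2480 tested loci with a mean like that of TB1, 32.7% were called higher and 26.4% had a larger log2 change. In whole leaf samples, a changed share of cells that express a gene and a changed amount of RNA per cell cannot be told apart.

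**Figure D2:**
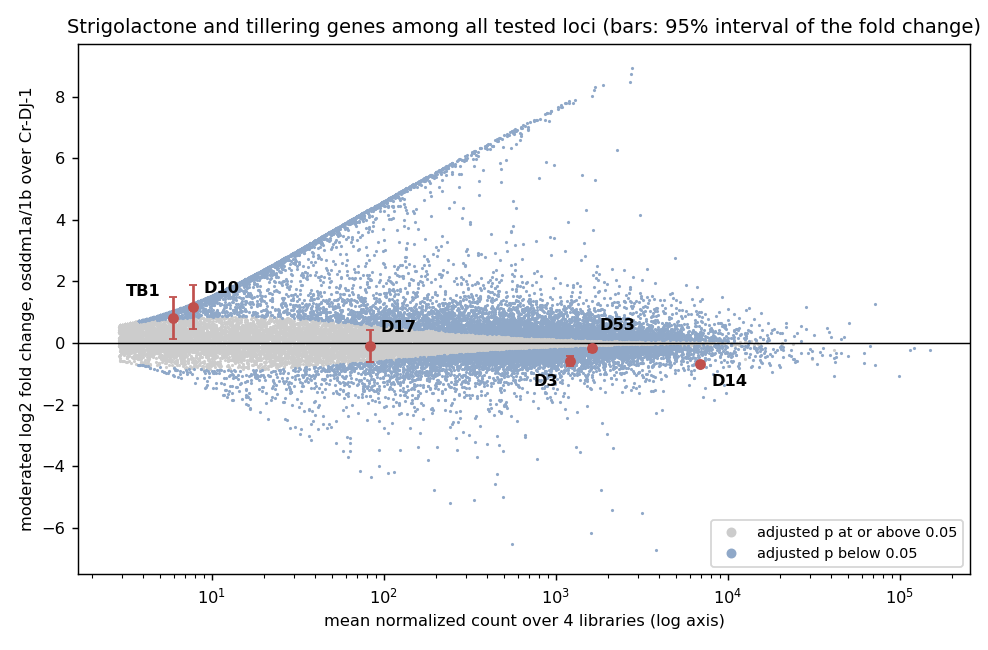
Moderated log2 fold change of osddm1a/1b over Cr-DJ-1 (y axis) against the mean normalized count over the 4 libraries (log x axis) for all 29212 tested loci, with adjusted p below 0.05 in blue and the others in grey, and the 6 genes in red with 95% intervals. D10 and TB1 sit at the low end of the counts, within the many low loci with a positive change, whereas D14 and D3 lie below most loci of a like mean.

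The recovered reads were also fitted with limma, on log2(normalized reads + 1), over 28460 loci. This fit was chosen after the reads proved recoverable. It called 61.7% of loci, 35.1% higher and 26.6% lower, including 13013 of the 13018 fitted loci that the authors' test called, and it gave the same side of the threshold for all 6 genes. By limma with Benjamini-Hochberg adjustment, D14 changed by -0.69 (adjusted p = 3.98e-06), D3 by -0.60 (adjusted p = 9.33e-05) and D53 by -0.16 (adjusted p = 0.0263). D10 changed by 3.53 (adjusted p = 0.000535) and TB1 by 2.51 (adjusted p = 0.00152) in that fit, against the moderated 1.17 and 0.83 of the authors' deposited table. D17 was not called by limma, at -0.12 (adjusted p = 0.497).

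The main estimates lay close to each other for D14, D3, D53 and D17 and spread widely for the 2 genes with few reads. Leaving out 1 library at a time, the plain log2 ratio of D14 stayed between -0.695 and -0.687 and that of D3 between -0.65 and -0.55. For D53 it ranged from -0.22 to -0.11, with the value nearest 0 without Cr-DJ-1 library a, against -0.16 with all libraries. For D17 it ranged from -0.20 to -0.04, against -0.12 with all libraries, so single libraries moved both of these small values by more than 1.5-fold. For TB1 it ranged from 2.96 to 3.77. For D10 it ranged from 4.05 to 5.18 over the 3 settings that gave a ratio, since Cr-DJ-1 library b alone has no read of D10. Limma called 26.2% and 26.5% of loci without osddm1a/1b library a or b and 58.1% and 58.2% without Cr-DJ-1 library a or b, and with pseudocounts of 0.5 and 4 it called 60.8% and 62.9%. In limma with Benjamini-Hochberg adjustment the call of D10 was lost without osddm1a/1b library a (adjusted p = 0.0887) and without osddm1a/1b library b (adjusted p = 0.0818), at log2 changes of 3.39 and 3.66.

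**Figure D3:**
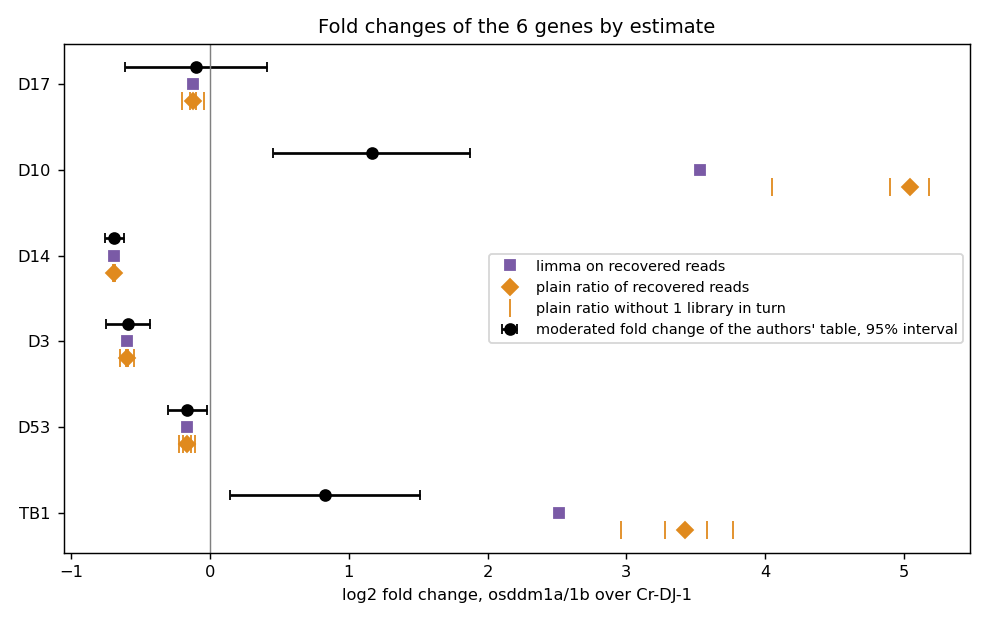
Log2 fold change of osddm1a/1b over Cr-DJ-1 (x axis) for the 6 genes, as the moderated value of the authors' deposited table with its 95% interval (black), from limma on recovered reads (squares), as the plain ratio of recovered reads (diamonds) and as that ratio without 1 library in turn (ticks). The estimates of D17, D14, D3 and D53 lie together, whereas those of D10 run from 1.17 to 5.18 and those of TB1 from 0.83 to 3.77, ticks included.

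The other listed genes were 27 loci, 6 of strigolactone synthesis, 6 of perception and signalling, 12 regulators of tillering and 3 regulators upstream of synthesis, and 22 of the 27 had an adjusted p. Of these 22, 7 were higher in osddm1a/1b, 7 were lower and 8 were not called in the authors' deposited table. Their median log2 change was -0.01, against 0.05 over all tested loci. The share of all tested loci called was 46.7%, with 27.6% higher and 19.1% lower. Among the 6 other loci of synthesis, 4 were tested, 2 were higher and none was lower.

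D10-like (LOC_Os01g38580), a relative of D10, had 692 and 486 reads in osddm1a/1b and 333 and 272 reads in Cr-DJ-1. D10-like rose by 0.89 ± 0.13 (log2) in the authors' deposited table (adjusted p = 8.47e-11). Unlike D10 it was well covered in both genotypes, and its osddm1a/1b libraries both lay above the Cr-DJ-1 libraries. The second locus of this list that rose, LOC_Os01g50530, had 378 and 364 reads in osddm1a/1b and 39 and 28 reads in Cr-DJ-1, a log2 change of 3.11 ± 0.22 in the authors' deposited table (adjusted p = 4.05e-42).

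Of 6 other loci of perception and signalling, 5 were lower in osddm1a/1b, none was higher and D53-like was not called in the authors' deposited table. The list is wider than strigolactone signalling, as it also holds OsSMAX1 of the karrikin pathway and relatives of D14. Over all tested loci 19.1% were called lower and 46.7% were called in either direction. The median log2 change of the 6 loci was -0.24. The locus with the largest change of these, LOC_Os05g51240, had 18 and 15 reads in osddm1a/1b and 360 and 321 reads in Cr-DJ-1. It fell by 3.81 ± 0.25 (log2) in the authors' deposited table (adjusted p = 9.1e-51). OsSMAX1 (LOC_Os08g15230), the relative of D53 that represses the karrikin pathway, had 4463 and 3486 reads in osddm1a/1b and 4899 and 4053 reads in Cr-DJ-1, and fell by 0.21 ± 0.04 in the authors' deposited table (adjusted p = 1.46e-05).

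With D14, D3 and D53, 8 of the 9 tested loci of the perception and signalling list were lower in osddm1a/1b. None was higher, where 19.1% of all tested loci were called lower. Among loci with a mean like that of D14, D3 and D53 this share was 36.3%, 30.9% and 31.3%. Since the list is wider than strigolactone signalling, 8 of 9 is not a count of strigolactone signalling genes alone. The lists were drawn up with earlier results of these data known, and no test of the lists was made. The sizes differed between the members, with log2 changes from -3.81 for LOC_Os05g51240 to -0.12 for the locus with the smallest change that passed, in the authors' deposited table.

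Of 12 other regulators of tillering, 10 were tested, with 4 higher, 2 lower and 4 not called in the authors' deposited table. These counts lie near the shares of all tested loci, 27.6% higher and 19.1% lower. LAX2 (LOC_Os04g32510), which is needed to form axillary meristems, had 90 and 64 reads in osddm1a/1b and 171 and 151 reads in Cr-DJ-1. LAX2 fell by 0.99 ± 0.23 (log2) in the authors' deposited table (adjusted p = 7e-05). OsMADS57 (LOC_Os02g49840), a MADS-box factor known in rice to act on D14 expression and tillering, had 291 and 224 reads in osddm1a/1b and 444 and 357 reads in Cr-DJ-1, and fell by 0.65 ± 0.15 in the authors' deposited table (adjusted p = 4.6e-05).

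OsPIN1b (LOC_Os02g50960), an auxin efflux carrier, rose by 0.24 ± 0.06 (log2) in the authors' deposited table (adjusted p = 7.64e-05). The other tillering loci called higher there were LOC_Os06g03710, at 1.00 ± 0.16 (adjusted p = 6.43e-09), and LOC_Os09g31438, at 0.70 ± 0.29 (adjusted p = 0.0340). LOC_Os03g03150 was also called higher, at 0.27 ± 0.08 (adjusted p = 0.00136) in the authors' deposited table. SPL14 (LOC_Os08g39890), a squamosa-promoter-binding factor that limits tiller number, had 174 and 131 reads in osddm1a/1b and 151 and 100 reads in Cr-DJ-1 and was not called, at 0.23 ± 0.22 (adjusted p = 0.404) in the authors' deposited table. SPL7 (LOC_Os04g46580), its relative, had 23 and 20 reads in osddm1a/1b and 12 and 8 reads in Cr-DJ-1, and its 0.59 ± 0.38 missed the threshold in the authors' deposited table (adjusted p = 0.205). OsCKX9 (LOC_Os05g31040), a cytokinin oxidase that strigolactone induces in rice, stood at 22 and 21 reads in osddm1a/1b and 23 and 20 reads in Cr-DJ-1.

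Known players around D14, D53 and TB1 thus moved in both directions or were not called in the authors' deposited table. Of the 3 upstream regulators 2 were tested. LOC_Os03g15680 had 7 and 10 reads in osddm1a/1b and no read in either Cr-DJ-1 library, at least 5.76-fold higher against a floor of 3 reads over both Cr-DJ-1 libraries. It was called higher in the authors' deposited table (adjusted p = 0.0320). This locus, counted above among the other listed loci that were higher, reached the tested loci only through its osddm1a/1b reads. Among 2562 tested loci with a mean like that of LOC_Os03g15680, 21.2% were called higher. PHR2 (LOC_Os07g25710), the phosphate starvation factor, was not called, at -0.06 ± 0.07 (adjusted p = 0.523) in the authors' deposited table. LAX1 (LOC_Os01g61480), a partner of LAX2, had 2 reads in all, both in 1 osddm1a/1b library, and has no adjusted p.

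Markers of other tissues were read in the same libraries. All 3 markers of the shoot meristem, OSH1, OSH15 and OSH71, were higher in osddm1a/1b, and none was at 0 in any library. Over all tested loci 27.6% were called higher in the authors' deposited table. Among loci with a mean like that of OSH1, OSH15 and OSH71 this share was 29.3%, 30.4% and 29.0%. Their summed normalized reads were 180.1 and 158.8 in osddm1a/1b and 34.5 and 25.8 in Cr-DJ-1. The log2 changes in the authors' deposited table were 1.59 for OSH1, 1.21 for OSH15 and 1.995 for OSH71. D10 and TB1 rose alongside KNOX genes that mark the meristem, and the part of tissue composition in their rise was not tested.

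None of the 3 root markers was called in the authors' deposited table, and their summed normalized reads were 506.6 and 515.8 in osddm1a/1b and 489.6 and 510.7 in Cr-DJ-1. That sum is mostly OsLsi1, with 563 and 435 reads in osddm1a/1b and 529 and 435 reads in Cr-DJ-1. The root marker LOC_Os02g44310 had 10 and 15 reads in osddm1a/1b and 2 and 5 reads in Cr-DJ-1, and limma with Benjamini-Hochberg adjustment called it higher (adjusted p = 0.0355). The part of root tissue in the rise of D10 and TB1 was not tested. Of the 3 mesophyll markers, CAB1R and CAB2R were higher by 1.23 and 1.62 on the log2 scale, and OsRbcS fell by 0.24 in the authors' deposited table. CAB1R had 3475 and 2646 reads in osddm1a/1b and 1325 and 1202 reads in Cr-DJ-1. The mesophyll markers thus differed in direction, and the part of leaf cell share in the fall of D14 and D3 was not tested.

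**Figure D4:**
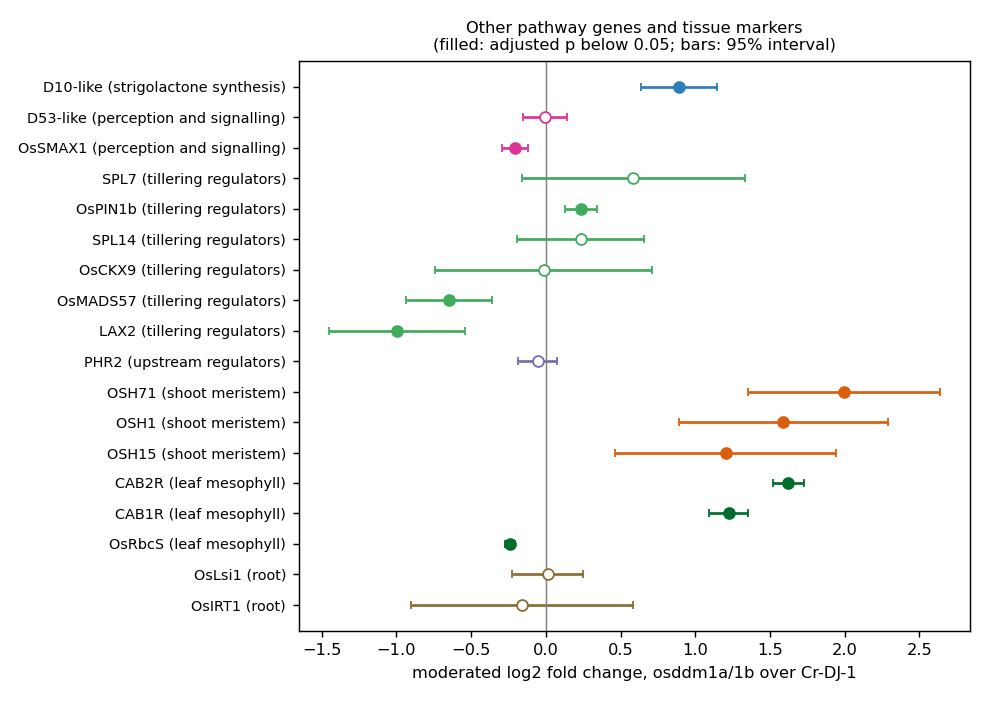
Moderated log2 fold change of osddm1a/1b over Cr-DJ-1 in the authors' deposited table (x axis) with 95% intervals for the pathway genes and tissue markers that could be named, grouped by list, with filled points for an adjusted p below 0.05. D10-like and the 3 meristem markers lie to the right of 0, and LAX2, OsMADS57 and OsSMAX1 to the left.

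The neighbours of the 6 genes were read in the order of locus numbers, 5 on each side. Of these 60 loci, 28 had an adjusted p, 13 were higher in osddm1a/1b and 4 were lower, so 60.7% passed in the authors' deposited table against 46.7% of all tested loci. Over all tested loci 27.6% were called higher and 19.1% lower. The 3 tested neighbours of TB1, out of 10 loci, were all higher, as were 3 of the 4 tested ones of D10. Of those of D10, LOC_Os01g54290 has no Cr-DJ-1 read and reached the tested loci only through its osddm1a/1b reads. Of the 4 tested neighbours of D14, 2 were higher and none was lower. This is a description without a test, and with 2 or 10 loci on each side the share was 76.9% and 56.9%.

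The neighbour of TB1 with the smallest adjusted p was LOC_Os03g49860, 2 rows before it, with a log2 change of 6.19 ± 0.31 in the authors' deposited table (adjusted p = 2.09e-89) at a mean of 326.4 normalized reads. For D10 it was LOC_Os01g54290, 2 rows after it, with 90 and 103 reads in osddm1a/1b and no read in either Cr-DJ-1 library. Each was picked for its small adjusted p, and LOC_Os01g54290 reached the tested loci only through its osddm1a/1b reads. Both neighbours were far higher in osddm1a/1b, on the same side as TB1 and D10, and whether the changes are linked was not tested.

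The neighbours of the genes that fell, and of D17, which was not called, moved in either direction. For D14, LOC_Os03g10640, 2 rows after it, had 4119 and 3175 reads in osddm1a/1b and 1589 and 1193 reads in Cr-DJ-1, a log2 change of 1.351 ± 0.06 in the authors' deposited table (adjusted p = 2.04e-111) opposite to that of D14. For D3 the neighbour with the smallest adjusted p, LOC_Os06g06080, fell by 0.63 ± 0.08 in the authors' deposited table (adjusted p = 4.97e-13), as D3 did. For D53 it was LOC_Os11g01340, next to it, which rose by 0.94 ± 0.10 in the authors' deposited table (adjusted p = 1.08e-18), opposite to D53. For D17 it was LOC_Os04g46440, 4 rows before it, with 273 and 226 reads in osddm1a/1b and 171 and 146 reads in Cr-DJ-1, which rose by 0.58 ± 0.18 in the authors' deposited table (adjusted p = 0.00419). The distances in bases were not used here.

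**Figure D5:**
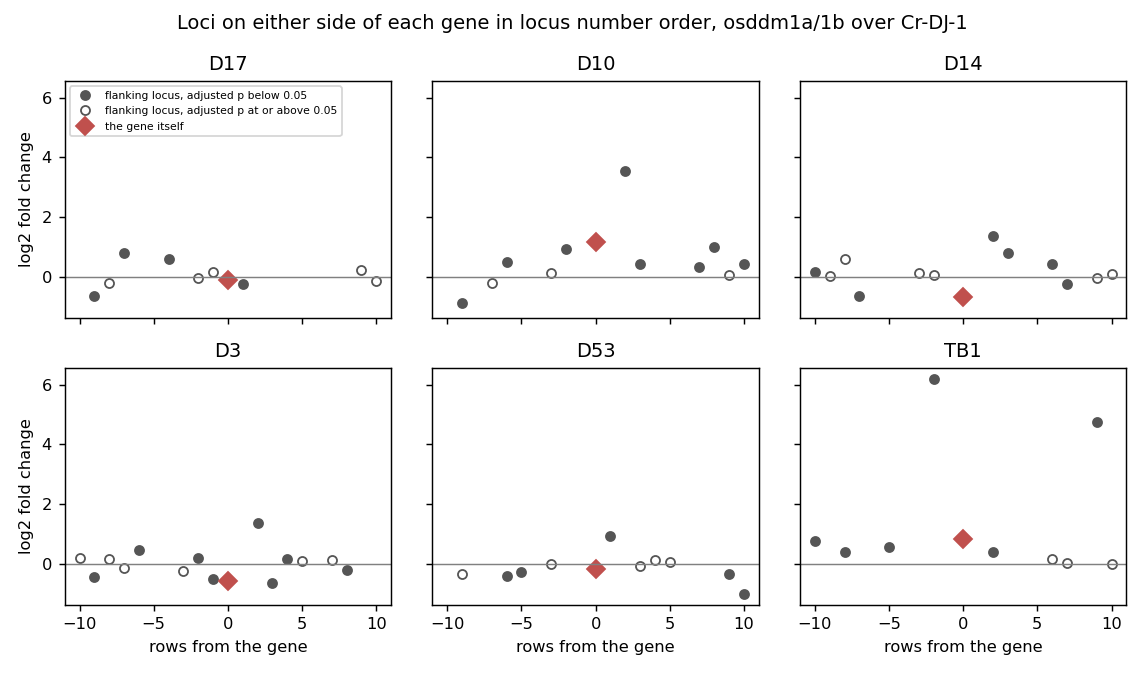
Log2 fold change of osddm1a/1b over Cr-DJ-1 (y axis) of the tested loci up to 10 rows on either side of each gene in locus number order (x axis), with filled circles for an adjusted p below 0.05, and the gene itself as a red diamond. The neighbours of TB1 and D10 with the largest changes lie 2 rows away, with TB1's at 6.19 in the authors' deposited table, and the tested neighbours of D14 within 5 rows lie at or above 0.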

How the data were processed

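Leaf RNA-seq libraries of osddm1a/1b and Cr-DJ-1 (2 each) were compared, grouped by their titles. The submitters' processing notes name, without roles, Bowtie, Bowtie2 (2.1.0), DESeq2, edgeR, FastQC, HTSeq, TopHat and Trimmomatic. The genome build, and whether counting used the strand that the kit marks, are not given in the sources used here, so reads of overlapping antisense genes cannot be told apart.

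The deposited table has no header, and its columns were identified from the values. The signal is the mean over the 4 libraries of counts divided by size factors, as deposited. The authors' log2 values are fold changes moderated towards 0 at low counts, with a standard error on the log2 scale. The deposited table also has a Wald score, a p-value and a Benjamini-Hochberg adjusted p-value per locus, and the score equalled fold over standard error within 1.66e-06. The adjusted p-value was given for 29212 loci with a mean of at least 2.88. Intervals are 95% intervals from the deposited standard error.

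Whole reads per library were computed here. Steps of 1 read in the mean gave size factors of 1.15 and 0.888 (osddm1a/1b) and 1.10 and 0.891 (Cr-DJ-1). The combination of whole reads that returned the deposited fold change and standard error was kept if no other came within tolerance. It was also kept if the next best lay at least 30 times farther from the deposited fold change. Above a mean of 60 only a window of read shares was searched. The search gave reads for 98.1% of 41402 loci with reads, without 64 loci whose mean is above 20000. For the 6 genes, 1 to 2283 combinations matched the mean, and 1 each was kept by fold and error, within 1.48e-08 of the fold. On 400 simulated rows, 98.5% came out right and 0% wrong. limma 3.58.1 (R 4.3.3) with a trend was fitted on log2(reads over size factor + 1), as the deposited columns hold no counts. On simulated reads over 28460 loci, limma recovered 80% of 100 loci changed 2-fold and 94% of 100 changed 4-fold, and called 0.0425% of unchanged loci. The simulated dispersion, the spread beyond counting noise, was smaller at low counts than that matched to the deposited values. The latter was 0.356 for D10 and 0.454 for TB1, so these rates do not cover genes with so few reads. For D14, D3 and D53 the matched dispersion was 0.000437, 0.00236 and 0.00192, smaller than any simulated one. Far fewer loci were changed in the simulation than limma called in the data. The rates are thus not those of the well covered genes either. Counting intervals cover counting error only.

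The genes and lists were chosen with earlier results of these data known. The text names the 7 given genes, genes of the lists and, per gene, the neighbour with the smallest adjusted p. Of 45 listed loci, 23 were paired with a name by alias, chromosome and order in a RefSeq table (ASM3414082v1), 3 were named by the rule, and of the other 19 only OsDDM1a and OsDDM1b are named. Alternatives were another threshold, filter, centring, estimate, pseudocount and number of neighbours, and leaving out each library. Peak and small RNA lists were not used, since no source here places the genes in their coordinates.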

Additional observations from a re-analysis of the deposited data

How the results depend on the processing

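The count of genes lower in osddm1a/1b (3) was 2 at a threshold of 0.01 and 2 with no filter on the mean. It was 3 among loci with a mean of at least 10, after centring on the median fold change and in limma with all libraries. Over 11 alternatives it stayed within 1.5 times. The count of genes higher in osddm1a/1b (2) was 1 at a threshold of 0.01, 1 with no filter on the mean, 0 among loci with a mean of at least 10, where D10 and TB1 are left out by construction, and 1 after centring on the median fold change. In limma it was 2 with pseudocounts of 1, 0.5 and 4, and without 1 library in turn it ranged from 1 to 2. For the 27 other listed loci, the 7 higher and 7 lower became 4 to 9 higher and 4 to 7 lower without 1 library in turn, with the lone library taken to vary like the other genotype; each count was 4 without osddm1a/1b library a and without osddm1a/1b library b, where limma called 26.2% and 26.5% of all fitted loci. No direction of the 6 genes was reversed. D14 and D3 stayed called in every tested alternative, with the largest adjusted p at 0.0167 and 0.0185, and D17 was called in none. The shares of neighbours called, 76.9% with 2 and 56.9% with 10 loci on each side, stayed within 1.5 times of 60.7%. No paired analysis was possible because the recovered libraries carry no repeat number. Depth limits D10 and TB1, at 0 to 1 read per Cr-DJ-1 library.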
